A study of Saccharomyces cerevisiae with 12 samples.

Results

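The mitochondrial ribosomal proteins described here are the 54 genes whose symbol is MRPL, MRPS or RSM followed by a number, out of 5656 genes measured. A gene is a member by its symbol alone, but the set was chosen with earlier results of these data known. Each member is read from its brightest probe set, by mean signal over the 12 arrays. By symbol, 34 of the 54 are counted with the large subunit (MRPL) and 20 with the small subunit (MRPS and RSM).

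The mitochondrial ribosome, or mitoribosome, translates the few messages of mitochondrial DNA, most of which encode membrane subunits of the respiratory chain and ATP synthase. In Saccharomyces cerevisiae almost all of its proteins are encoded in the nucleus, made in the cytosol and imported. Some belong to families shared by all ribosomes, others to families shared with bacteria, and others are found in mitochondria only. Yeast that cannot translate in its mitochondria cannot respire but still grows by fermentation.

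RNA came from 12 cultures of the laboratory strain S288C, each hybridised to 1 Affymetrix array. Cultures at an OD600 of 0.1 grew for 1 h at 30 °C, received a compound or the solvent, and were harvested 5 h later. The tomatidine group received 0.625 ppm of this steroidal alkaloid, the tomatine group 13.9 ppm of its glycoside, the fenpropimorph group 0.313 ppm of this morpholine fungicide, and the control group the solvent dimethylformamide (DMF), in which all 3 compounds were dissolved. Each group has 3 arrays, 1 from each of 3 days, and an array is named by its group and day. Groups follow the sample titles. Another label names 15 uM tomatidine for all samples, controls included, and was not used.

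Signals are given on the linear scale of the deposited values, and folds and their standard errors on the log2 scale. A gene is called, and said to fall or rise, at an adjusted p under 0.05 in limma. Benjamini-Hochberg adjustment was made over all 9275 probe sets, separately for each comparison. The unadjusted p that a call needs therefore differs between comparisons, and a count of calls does not measure the size of a change. The p-values reflect only how far cultures of the 3 days differed, and precision is limited by the number of arrays. All comparisons with control share the same 3 control arrays. A signal is a share of the RNA on the array, so less transcript per cell and fewer cells expressing a gene cannot be told apart. Levels are compared between groups and not between genes, because probe sets differ in brightness.

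Median signals were 77.2 to 78.6 per array. All 4 genes specific to mating type alpha were bright (89.9th to 98.9th percentile of genes), and STE2, BAR1 and ASG7, specific to a cells, were below the 5th percentile; S288C is an alpha strain. The MFA1 and MFA2 probe sets, also of a cells, read 53.4 to 110 and lay higher, at the 26.4th and 39.2nd percentile. Why they did was not tested. The tomatine 2 array stood apart in part of the probe sets. On it, 10 genes read at least 1 log2 unit below every other array, against 0 to 2 genes on each other array. The ratio of 3′ to 5′ probe sets of SPT15, a measure of RNA integrity and labelling, was 2.82 to 4.07 with tomatidine, 4.61 to 4.81 with tomatine, 4.79 to 5.32 with fenpropimorph and 4.62 to 5.77 in control.

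Across the 54 genes the fenpropimorph arrays were lowest and the control arrays highest. Relative to each gene's own mean over the 12 arrays, the median of the members was 0.01, -0.01 and -0.03 log2 units on the tomatidine arrays of days 1, 2 and 3, and 0.04, 0.05 and 0.09 on the tomatine arrays. It was -0.15, -0.19 and -0.28 on the fenpropimorph arrays and 0.23, 0.10 and 0.18 on the control arrays. The tomatidine and tomatine medians thus lay between those of fenpropimorph and control on every day. Single genes followed this order less strictly: 30 of the 54 had their lowest value on fenpropimorph 3 and 31 their highest on control 1, while 6 were highest on tomatidine 2. In the limma F test, 41 of 54 differed among the 4 groups, as did 2749 of 5656 genes and 37.2% of all probe sets.

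**Figure D1:**
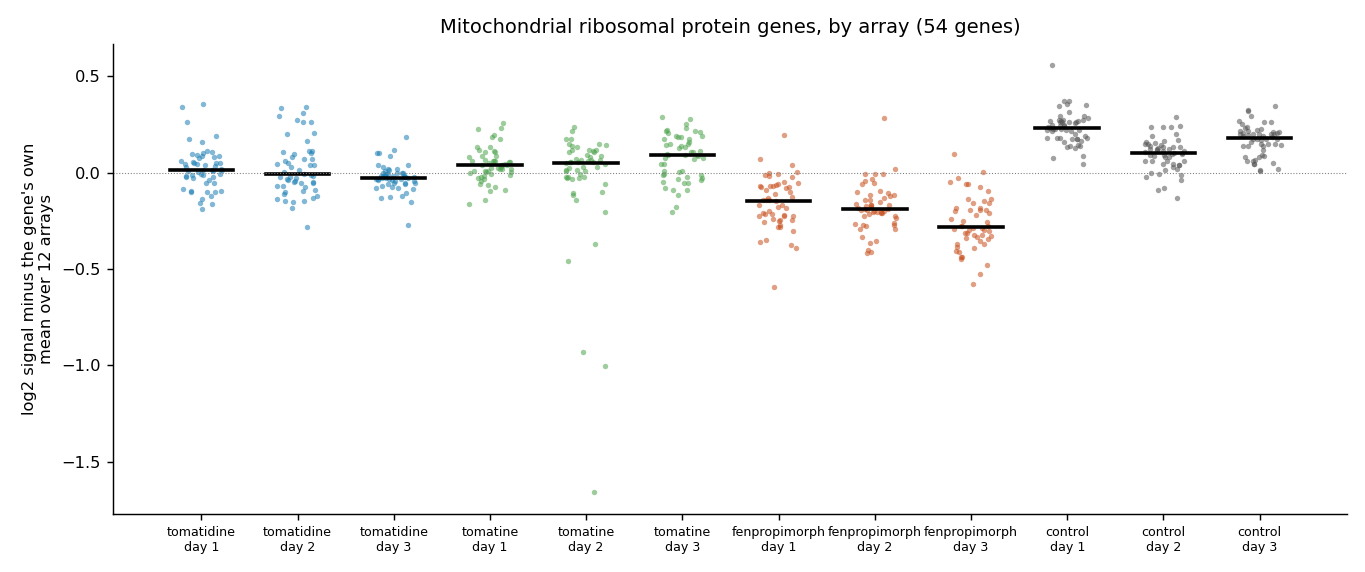
Each point is 1 of the 54 mitochondrial ribosomal protein genes on 1 array; the y axis is its log2 signal minus the gene's own mean over the 12 arrays, and black bars are medians. The fenpropimorph medians, -0.15 to -0.28, lie below 0, the control medians, 0.10 to 0.23, lie above it, and MRPS18 is far below the rest on the tomatine array of day 2.

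Fenpropimorph blocks late steps of ergosterol synthesis, and its comparison with control asks how expression differs with the compound. Whether a difference follows from that block or from another effect of the compound was not tested. With fenpropimorph, 44 of the 54 genes fell and 0 rose, where 21.4% of all 5656 genes fell and 17.8% rose (16.9% and 13.4% of all probe sets). At an unadjusted p under 0.05, 48 members were lower and 0 higher, against 28.2% and 21.4% of all genes. The median log2 fold change of the 54 was -0.38, against -0.06 over all 5656 genes. The change ran from -0.62 to 0.11 and was below 0 for 53 genes. In 50 genes all 3 fenpropimorph arrays were below all 3 control arrays, as in 31.9% of all genes. In 52 genes fenpropimorph was below control on each of the 3 days, as in 41.5% of all genes.

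Genes of both subunits fell, where 21.4% of all genes fell with fenpropimorph. In the large subunit 29 of 34 genes fell (median log2 fold change -0.40), and in the small subunit 15 of 20 (median -0.37). Without 1 array the counts were 23 to 31 in the large and 12 to 17 in the small subunit. By family name in the RefSeq table, 9 of 9 members of families shared with bacteria fell (median -0.41), as did 19 of 20 members of mitochondrial families (median -0.40) and 15 of 24 members of families common to all ribosomes (median -0.29). RSM22, a methyltransferase-like protein with no family name there, fell as well, a call lost without control 1 or control 3. The difference between the classes was not tested. Of the 24 members of universal families, 18 were called without tomatine 2 and 11 without fenpropimorph 2, fenpropimorph 3 or control 1. Without 1 array the counts were 7 to 9 for families shared with bacteria and 17 to 20 for mitochondrial families. Of the 27 dimmer genes 21 fell, and of the 27 brighter ones 23.

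**Figure D2:**
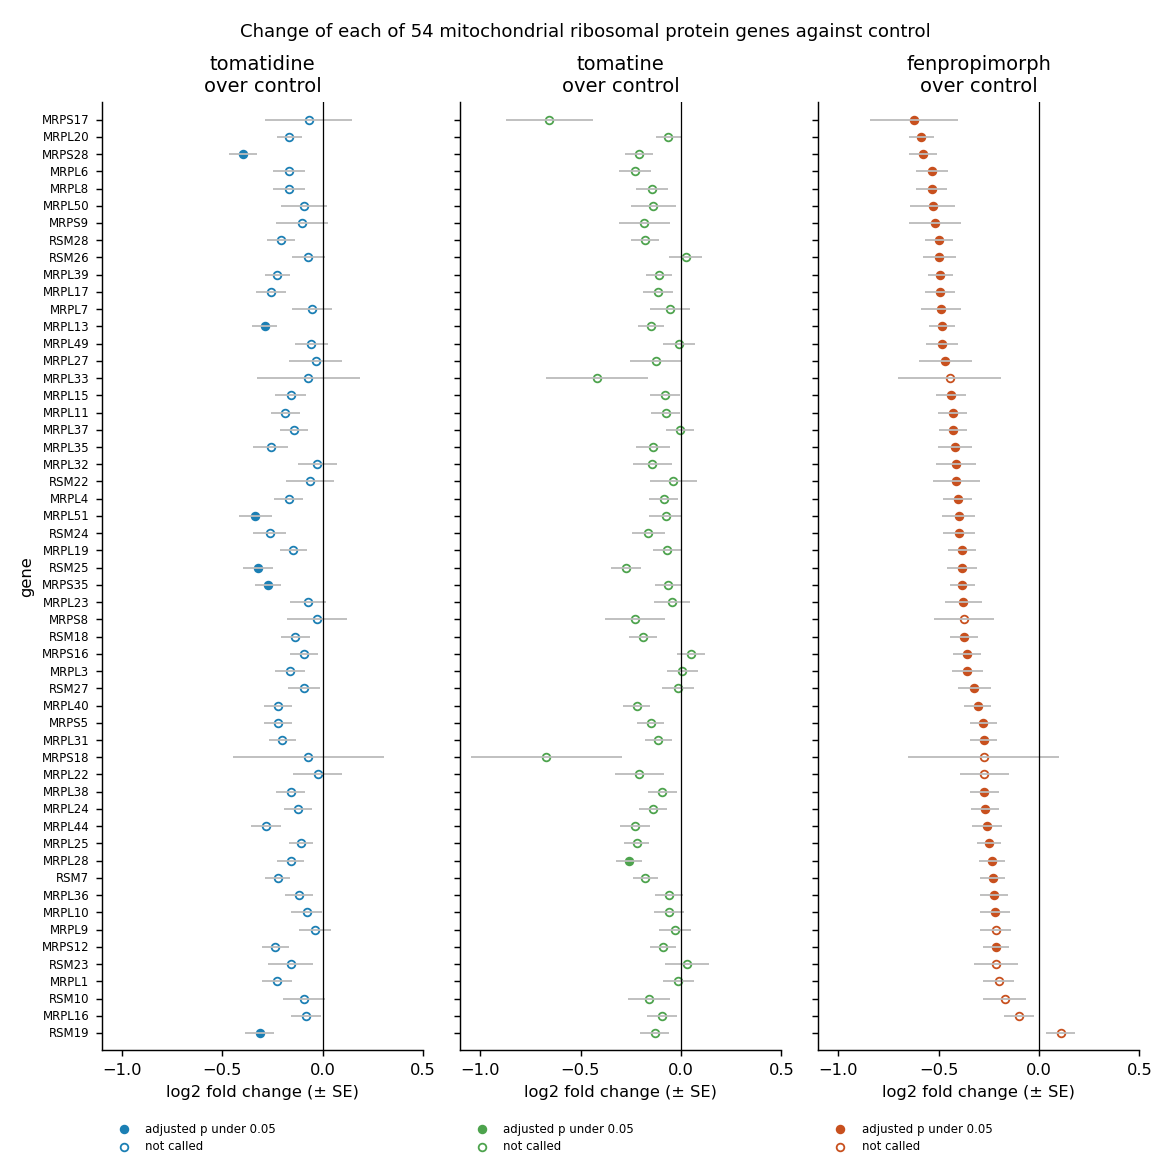
The x axis is the log2 fold change of each of the 54 genes over control with its standard error (3 arrays a group), 1 panel per compound, ordered by the fenpropimorph value; filled points have an adjusted p under 0.05. Fenpropimorph has 44 filled points, tomatidine 6 and tomatine 1, all below 0, and RSM19 is the only gene above 0 with fenpropimorph. Adjustment was separate for each panel, so an estimate of similar size can be filled in 1 panel and open in another.

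MRPL20 (YKR085C), a large subunit protein of the mitochondrial family mL58, had the smallest F test p (adjusted p = 6.69e-05). Its signal was 228, 211 and 215 with tomatidine, 217, 239 and 247 with tomatine, 164, 164 and 160 with fenpropimorph, and 247, 242 and 244 in control. The 3 fenpropimorph values were within 5 units of each other and below the other 9. The log2 fold change with fenpropimorph was -0.59 ± 0.0633 (adjusted p = 2.5e-05), a 33.4% lower signal.

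MRPS28 (YDR337W) is the small subunit protein of family uS15m, whose bacterial relative binds early to the 16S rRNA during subunit assembly. It read 126, 127 and 142 with tomatidine, 147, 153 and 150 with tomatine, 119, 120 and 109 with fenpropimorph, and 183, 172 and 165 in control. Control was highest on all 3 days, and the fenpropimorph values lay below all others. MRPS28 fell by 0.58 ± 0.0693 on the log2 scale with fenpropimorph (adjusted p = 5.84e-05).

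MRPL39 (YML009C), the family bL33m protein of the large subunit, had signals of 539, 501 and 542 with tomatidine and 567, 540 and 609 with tomatine. With fenpropimorph they were 443, 442 and 430, and in control 628, 601 and 621. Tomatidine and tomatine overlapped, whereas the fenpropimorph arrays stood below all others (log2 fold change over control -0.49 ± 0.0629).

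The next members by F test were MRPL13 and RSM28, of the mitochondrial families mL50 and mS46. MRPL13 read 163, 149 and 160 with tomatidine, 168, 178 and 174 with tomatine, 146, 137 and 131 with fenpropimorph, and 196, 193 and 188 in control, with control above all others. RSM28 averaged 106 ± 0.221 with tomatidine, 108 ± 2.18 with tomatine, 86.5 ± 7.97 with fenpropimorph and 122 ± 2.33 in control (SD, n = 3 each). In RSM28 too, all 3 fenpropimorph arrays were lowest and all 3 control arrays highest.

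Other called members at the low end of the fenpropimorph comparison were MRPL6, of family uL6m, and MRPL8, of family bL17m, both in the large subunit (log2 fold change -0.53 ± 0.0795 and -0.53 ± 0.0778). MRPL50, of family bL9m, MRPS9, of family uS9m, and RSM26 fell by 0.53 ± 0.114, 0.52 ± 0.129 and 0.50 ± 0.0825 on the log2 scale. These 5 genes, MRPL20, MRPS28, MRPL39 and RSM28 kept their call whichever array was left out and under every other alternative. MRPS17, of the universal family uS17m, had the lowest estimate of the 54 and a wide standard error (log2 fold change -0.62 ± 0.218, adjusted p = 0.0493). Its call was lost without each of 8 of the 12 arrays: the 3 tomatidine arrays (adjusted p = 0.0588 to 0.0634), the 3 fenpropimorph arrays (0.0606 to 0.165), control 1 (0.149) and control 3 (0.102).

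At the other end of the called members, the smallest changes were those of MRPS12, MRPL10, MRPL36, RSM7, MRPL28, MRPL25, MRPL44, MRPL24, MRPL38 and MRPL31, from -0.22 ± 0.066 (MRPS12) to -0.28 ± 0.0675 (MRPL31). MRPL25 and MRPL31 kept their call whichever array was left out. MRPL10 lost its call without each array other than tomatine 2 and tomatine 3 (adjusted p = 0.0514 to 0.138) and with the day of culture as a block (adjusted p = 0.0586). MRPL36 lost it without fenpropimorph 1, fenpropimorph 3, control 1 or control 2 (adjusted p = 0.0703 to 0.109), MRPS12 without fenpropimorph 2, fenpropimorph 3 or control 1 (0.0805 to 0.107), and MRPL28 without fenpropimorph 2, fenpropimorph 3 or control 3 (0.0527 to 0.067). MRPL24 and MRPL44 lost it without fenpropimorph 2 or control 1 (0.0523 to 0.0815), MRPL38 without fenpropimorph 3 or control 1 (0.059 to 0.0612), and RSM7 without fenpropimorph 2 (0.0697). MRPL44 is the only member with more than 1 probe set. Its dimmer probe set gave -0.24 (adjusted p = 0.0328), close to the -0.26 of the one used.

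RSM19 (YNR037C), the small subunit protein of family uS19m, was the only one of the 54 above control with fenpropimorph. Its signal was 105, 94.7 and 95.4 with tomatidine, 113, 107 and 114 with tomatine, 132, 140 and 123 with fenpropimorph, and 130, 120 and 116 in control. Fenpropimorph was higher than control on each day, but the values overlapped and the gene was not called (log2 fold change 0.11, 95% interval -0.05 to 0.27, adjusted p = 0.299). RSM19 lies next to MRPS12 (YNR036C) in the reference table. MRPS12, the protein of the decoding centre in family uS12m, read 573, 539 and 523 with fenpropimorph against 672, 615 and 611 in control.

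The 9 other members that were not called with fenpropimorph, named for that reason after their values were seen, were MRPL1, MRPL9, MRPL16, MRPL22, MRPL33, MRPS8, MRPS18, RSM10 and RSM23. All had estimates below 0, from -0.10 (MRPL16, 95% interval -0.26 to 0.07) to -0.45 (MRPL33, standard error 0.256). MRPL16, of family uL16m, read 69.0, 73.9 and 71.4 with fenpropimorph against 77.2, 76.0 and 76.1 in control, which did not overlap.

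Several members, some of them not called with fenpropimorph, read low on the tomatine 2 array. MRPS18, the small subunit protein of family uS11m, read 179, 48.4 and 174 on the tomatine arrays of days 1, 2 and 3, while all other groups stayed between 145 and 197. Its value on tomatine 2 was 1.59 log2 units below the lowest of the other 11 arrays. MRPL33, of family uL30m, read 279, 123 and 299 with tomatine, 223, 229 and 189 with fenpropimorph, and 297, 262 and 313 in control. MRPS17 read 133, 69.2 and 129 with tomatine, against 194, 145 and 165 in control.

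Without tomatine 2, the fenpropimorph estimates were the same and 47 members were called. MRPL33 then had an adjusted p of 0.00371 (0.219 with all arrays), MRPS17 of 0.00388 (0.0493), MRPS8 of 0.0162 (0.08), MRPL22 of 0.0443 (0.117) and MRPS18 of 0.0511 (0.626). In the comparison of tomatine with control, leaving that array out moved the log2 fold change of MRPS18 to -0.05 (-0.67 with all arrays), of MRPL33 to -0.01 (-0.42) and of MRPS17 to -0.35 (-0.66). What lowered these values on tomatine 2 was not tested.

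**Figure D3:**
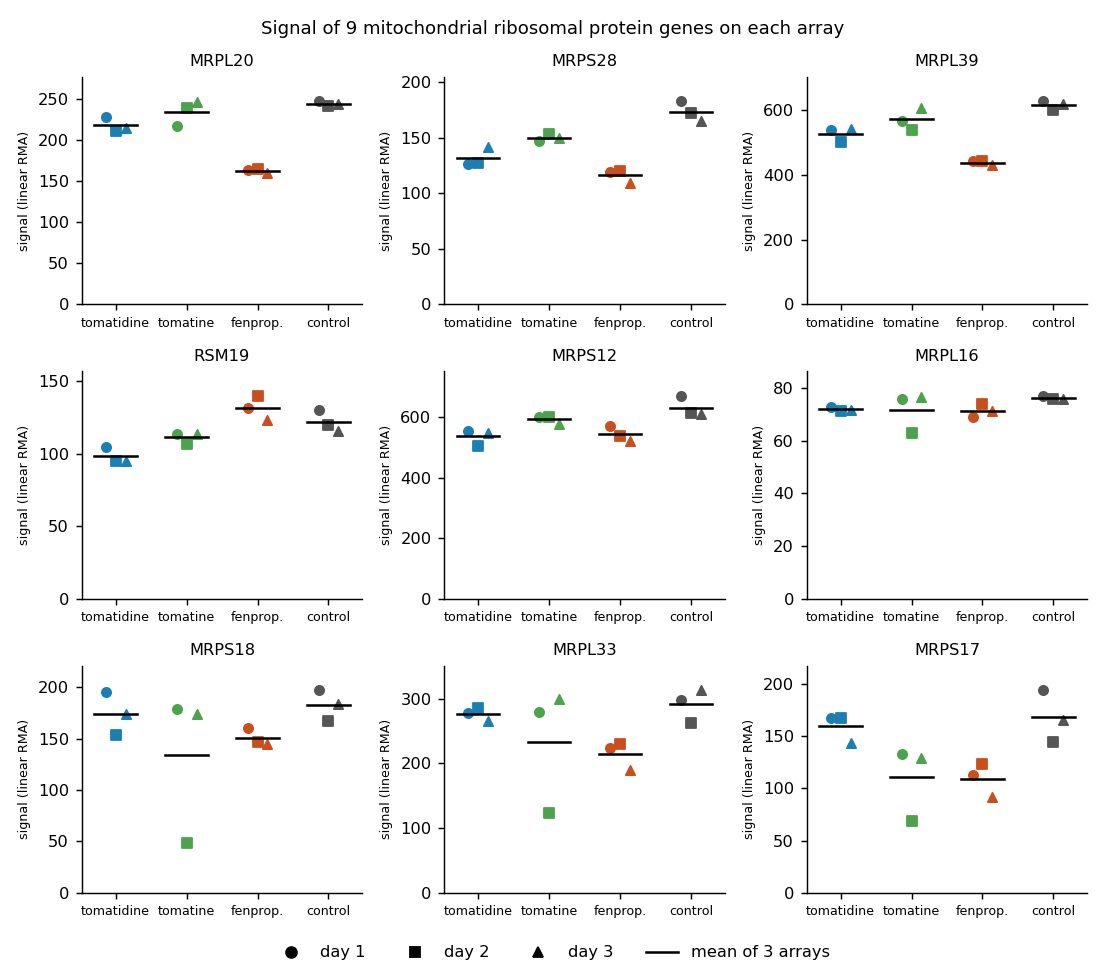
The y axis is the linear RMA signal, starting at 0, of 9 genes in the 4 groups; circles, squares and triangles are days 1, 2 and 3, and bars are means of 3 arrays. MRPL20, MRPS28 and MRPL39 are lowest with fenpropimorph, RSM19 is lowest with tomatidine, and MRPS18, MRPL33 and MRPS17 have 1 low tomatine value, that of day 2.

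Tomatidine, the aglycone of tomatine, is a steroidal alkaloid of tomato that interferes with sterol synthesis in yeast, and its comparison with control asks how cells respond to it. With tomatidine 6 of 54 members fell and 0 rose, where 2.46% of all genes fell and 3.16% rose (1.91% and 2.53% of all probe sets). All 54 estimates were below 0, from -0.40 to -0.03, with a median of -0.16 against -0.00 over all genes. In 32 members the tomatidine arrays lay below all control arrays (15.1% of all genes), and in 35 tomatidine was lower on each day (23.2% of all genes). At an unadjusted p under 0.05, 23 members were lower and 0 higher, against 10.3% and 9.64% of all genes. The SPT15 3′ to 5′ ratio given above was lower on all tomatidine arrays than on the control arrays, while that of ACT1 was 1.30 to 1.53 with tomatidine and 1.26 to 1.30 in control. Their part in the result was not tested.

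MRPS28 had the lowest estimate with tomatidine (log2 fold change -0.40 ± 0.0693, adjusted p = 0.00623) and kept its call under every alternative. MRPL51, of the mitochondrial family mL43, averaged 325 ± 6.9 with tomatidine and 411 ± 36.5 in control (SD, n = 3 each). It fell by 0.34 ± 0.0823 on the log2 scale (adjusted p = 0.0414). RSM25, a mitochondrial protein of the small subunit, read 40.8, 40.9 and 42.7 with tomatidine and 55.8, 46.4 and 53.7 in control, a fall of 0.32 ± 0.0748 on the log2 scale. RSM19, which was not lower with fenpropimorph, fell by 0.31 ± 0.0727 with tomatidine (adjusted p = 0.0324), and none of its tomatidine values reached the control range. MRPL13 and MRPS35 fell by 0.29 ± 0.0631 and 0.27 ± 0.0637.

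The tomatidine count depended on single arrays. It was 1 without tomatidine 2, tomatidine 3 or control 1, and 3 without tomatidine 1, fenpropimorph 2 or control 2. The number of all probe sets that fell moved as well, so the change was not particular to the members. It was 177 with all arrays, 68 without tomatidine 2, 128 without tomatidine 3 and 80 without control 1. MRPL13 lost its call without tomatidine 2, tomatidine 3, control 1 or control 2 (adjusted p = 0.0501 to 0.11), and RSM19 without the same 4 arrays (0.0771 to 0.138). RSM25 lost it without each tomatidine array in turn, fenpropimorph 2, control 1 or control 3 (0.0529 to 0.138), MRPS35 without those arrays or tomatine 1 (0.0511 to 0.138), and MRPL51 without each tomatidine array in turn, tomatine 1, tomatine 2, fenpropimorph 2, control 1 or control 2 (0.0515 to 0.166). The count of members was 11 when 1 probe set per gene was fitted and 1 when the fit held the tomatidine and control arrays only.

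Tomatine, the tomato glycoalkaloid that carries sugars on the same steroid, forms complexes with membrane sterols, and its comparison with control asks how cells respond to the glycoside. With tomatine 1 of 54 members fell and 0 rose, where 2.53% of all genes fell and 3.93% rose (1.77% and 2.59% of all probe sets). The median log2 fold change was -0.12 (0.01 over all genes), and 50 estimates were below 0. In 19 members tomatine lay below all control arrays (12.2% of all genes), and in 30 it was lower on each day (19.5% of all genes). At an unadjusted p under 0.05, 12 members were lower and 0 higher, against 9.23% and 13.7% of all genes.

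The called gene was MRPL28, of a mitochondrial family of the large subunit. Its signal was 66.0, 68.8 and 73.3 with tomatine and 82.7, 82.3 and 83.6 in control (log2 fold change -0.26 ± 0.0656, adjusted p = 0.049). The groups did not overlap, yet the call was lost on leaving out any array other than fenpropimorph 1 (adjusted p = 0.0526 to 0.154) and with the day of culture as a block (adjusted p = 0.0777). The count of called members was 0 with the day as a block and 0 without tomatine 2. MRPS28 read lower with tomatine than in control on each day without being called (-0.21, 95% interval -0.36 to -0.06).

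The compounds were compared at different doses, 0.625 ppm of tomatidine, 13.9 ppm of tomatine and 0.313 ppm of fenpropimorph, so a difference between them is one between treatments as given. Against fenpropimorph, 23 of 54 members were higher with tomatidine (22.7% of all genes) and 1 was lower (18%), with a median log2 difference of 0.22. MRPL50, MRPL7, MRPL27, MRPL49 and RSM26 had the largest such differences, 0.44 ± 0.114, 0.43 ± 0.1, 0.43 ± 0.131, 0.43 ± 0.0809 and 0.43 ± 0.0825. RSM19 was the member that was lower (-0.42 ± 0.0727, adjusted p = 0.000928), a call kept under every alternative. MRPL7, MRPL49 and RSM26 kept theirs as well, MRPL50 lost its call without tomatidine 1 (adjusted p = 0.0536), and MRPL27 without tomatidine 1, tomatidine 2 or fenpropimorph 3 (0.0536 to 0.106).

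The smallest called rises over fenpropimorph were those of MRPL13, MRPL4, MRPL17 and RSM18 (0.19 ± 0.0631 to 0.24 ± 0.0708). MRPL13 lost its call without tomatidine 1, tomatidine 3, fenpropimorph 2 or fenpropimorph 3 (adjusted p = 0.0956 to 0.123), MRPL4 without each tomatidine array in turn, fenpropimorph 1 or fenpropimorph 2 (0.0528 to 0.0991), MRPL17 without tomatidine 1, tomatidine 2, fenpropimorph 2 or fenpropimorph 3 (0.0756 to 0.12), and RSM18 without tomatidine 1, tomatidine 2 or fenpropimorph 3 (0.0667 to 0.0892). The count of 23 was 10 without tomatidine 1 and 15 without fenpropimorph 3.

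Tomatine gave 27 members higher than fenpropimorph (28.8% of all genes) and 1 lower (20.5%), with a median of 0.27. The largest differences were those of MRPL20 (0.52 ± 0.0633), RSM26 (0.52 ± 0.0825), MRPL49 (0.47 ± 0.0809), MRPL7 (0.43 ± 0.1) and MRPL37 (0.42 ± 0.069), and these 5 calls were kept under every alternative, as was that of MRPL6 (0.30 ± 0.0795). RSM19 was again the member that was lower (-0.24 ± 0.0727, adjusted p = 0.0215), a call lost without tomatine 2 (adjusted p = 0.0727) or fenpropimorph 2 (0.0939). RSM24, MRPL32 and MRPL35 were the least changed of the members called higher (0.24 ± 0.0807, 0.27 ± 0.099 and 0.28 ± 0.0852). RSM24 lost its call without each tomatine array in turn, fenpropimorph 2 or fenpropimorph 3 (0.0545 to 0.149), and MRPL35 without tomatine 2, tomatine 3, fenpropimorph 2 or fenpropimorph 3 (0.0533 to 0.0833). MRPL32 lost it with the day as a block (adjusted p = 0.0715) and without tomatidine 1, control 3, each tomatine array in turn or each fenpropimorph array in turn (0.05003 to 0.177).

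Tomatine and tomatidine share the steroid and differ in the sugars that tomatine carries. Between them 0 of 54 members were called in either direction by limma, where 2.63% of all genes were higher with tomatine and 3.48% lower. At an unadjusted p under 0.05, 8 members were higher with tomatine and 1 lower, against 13.5% and 9.46% of all genes. The member that was lower, MRPS17, had an unadjusted p of 0.0206 in limma with all arrays and 0.0804 without tomatine 2, which left 0 members lower. Differences in the members ran from -0.60 (MRPS18) to 0.26 with a median of 0.05. Without tomatine 2 they ran from -0.28 (MRPS17) to 0.29 with a median of 0.06, and MRPS18 was at 0.02. The absence of calls does not show that the treatments acted alike. RSM19, an example picked after its value was seen, had a difference of 0.18. Its unadjusted 95% interval was 0.02 to 0.34, and its adjusted p in limma was 0.186.

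Mitochondrial ribosomal proteins named otherwise were followed as a separate list of 23 genes. In limma 15 of them fell with fenpropimorph (median -0.36), 1 with tomatidine and 0 with tomatine. The shares of all genes that fell were 21.4%, 2.46% and 2.53%. At an unadjusted p under 0.05, 2 were lower with tomatine, against 9.23% of all genes. IMG1, of the large subunit, read 489, 434 and 352 with fenpropimorph against 623, 641 and 600 in control (log2 fold change -0.56 ± 0.099). MRP4 of the small subunit read 119, 111 and 113 with fenpropimorph against 163, 145 and 177 in control (-0.50 ± 0.0853). NAM9 and MRP17, both of the small subunit, fell by 0.47 ± 0.12 and 0.45 ± 0.122. The gene that fell with tomatidine was MHR1, a mitoribosomal protein also known for a role in mitochondrial DNA recombination (-0.33 ± 0.0829), but the count was 0 without each array other than tomatine 3, fenpropimorph 1 and control 2. VAR1, the one mitoribosomal protein encoded in mitochondrial DNA, was dim (7.46, 5.98 and 7.96 with fenpropimorph against 7.72, 7.30 and 6.76 in control) and had a log2 fold change of -0.03 (adjusted p = 0.918).

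Factors that act with the mitoribosome moved in part, where 21.4% of all genes fell with fenpropimorph and 2.46% with tomatidine. Of 8 mitochondrial translation factors, 6 fell with fenpropimorph (median -0.31), led by the elongation factor TUF1 (-0.56 ± 0.104), the elongation factor MEF1 (-0.38 ± 0.0896), the ribosome recycling factor RRF1 (-0.35 ± 0.0826) and MEF2 (-0.33 ± 0.0786). RRF1 was also the factor called with tomatidine (-0.33 ± 0.0826, adjusted p = 0.0457), where the count was 0 without each tomatidine array in turn, tomatine 3, each fenpropimorph array in turn or control 1. Of 6 assembly genes, 3 fell with fenpropimorph: the rRNA methyltransferase MRM1 (-0.41 ± 0.0656) and the GTPases GEP3 and MTG2 (-0.30 ± 0.0705 and -0.26 ± 0.0677).

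Among 14 mitochondrial tRNA synthetases, 2 fell with fenpropimorph, a smaller share than the 21.4% of all genes. They were AIM10 and ISM1, for proline and isoleucine (-0.32 ± 0.096 and -0.28 ± 0.0831, list median -0.13). That count was 0 without fenpropimorph 2, fenpropimorph 3 or control 1, and 1 without control 3. Among 18 translational activators and membrane receptors of mitochondrial translation, 9 fell and 1 rose with fenpropimorph (median -0.22), against 21.4% and 17.8% of all genes. The ribosome receptor MBA1 (-0.48 ± 0.0757) and the cytochrome b translation factors CBS1 and CBP6 (-0.37 ± 0.0907 and -0.35 ± 0.0809) were among those that fell. ATP22, which activates translation of an ATP synthase subunit message, rose by 0.49 ± 0.069. CBP6 was called with tomatidine as well (-0.32 ± 0.0809), where the count was 0 without each array other than tomatine 3 and fenpropimorph 3.

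Upstream of translation, 4 of 6 genes of mitochondrial transcription and RNA turnover fell with fenpropimorph (median -0.28): the RNA helicase MSS116 (-0.43 ± 0.0651), the RNA polymerase RPO41 (-0.37 ± 0.0895), PET127 (-0.30 ± 0.0663) and the polymerase's specificity factor MTF1 (-0.26 ± 0.0697). Of 12 genes of mitochondrial import, 9 fell with fenpropimorph (median -0.28), with the outer membrane receptors TOM20 (-0.54 ± 0.0749) and TOM22 (-0.34 ± 0.0923), the inner membrane channel TIM23 (-0.36 ± 0.0578) and the chaperone partner MGE1 (-0.31 ± 0.0813) changed most. The import count was 5 without fenpropimorph 2. Of all genes, 21.4% fell with fenpropimorph, 2.46% with tomatidine and 2.53% with tomatine. With tomatidine and with tomatine limma called 0 genes of either list. At an unadjusted p under 0.05, 1 transcription and 3 import genes were lower with tomatidine, against 10.3% of all genes. With tomatine 1 transcription gene was higher at that threshold, against 13.7% of all genes.

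The respiratory chain and ATP synthase subunits encoded in the nucleus, which assemble with products of the mitoribosome, had members that fell with each of the 3 compounds. With fenpropimorph 24 of 28 fell (median -0.59), with tomatidine 15 (median -0.38) and with tomatine 3 (median -0.21). The shares of all genes that fell were 21.4%, 2.46% and 2.53%. COX4 and COX5A of cytochrome oxidase fell by 1.01 ± 0.113 and 0.86 ± 0.116 with fenpropimorph. CYT1, cytochrome c1, fell by 1.18 ± 0.149 with tomatidine, by 0.63 ± 0.149 with tomatine and by 0.92 ± 0.149 with fenpropimorph. QCR10, of the same complex, fell by 0.82 ± 0.118 with tomatidine, by 0.51 ± 0.118 with tomatine and by 0.95 ± 0.118 with fenpropimorph. COX7 and the Rieske protein RIP1 fell with tomatidine (-0.64 ± 0.107 and -0.61 ± 0.113), and QCR2 fell with tomatine (-0.49 ± 0.118). The tomatidine count was 8 without tomatidine 2 and 9 without control 1. The tomatine count was 0 without tomatidine 1, each tomatine array in turn, fenpropimorph 2 or control 1, and 1 without control 2.

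**Figure D4:**
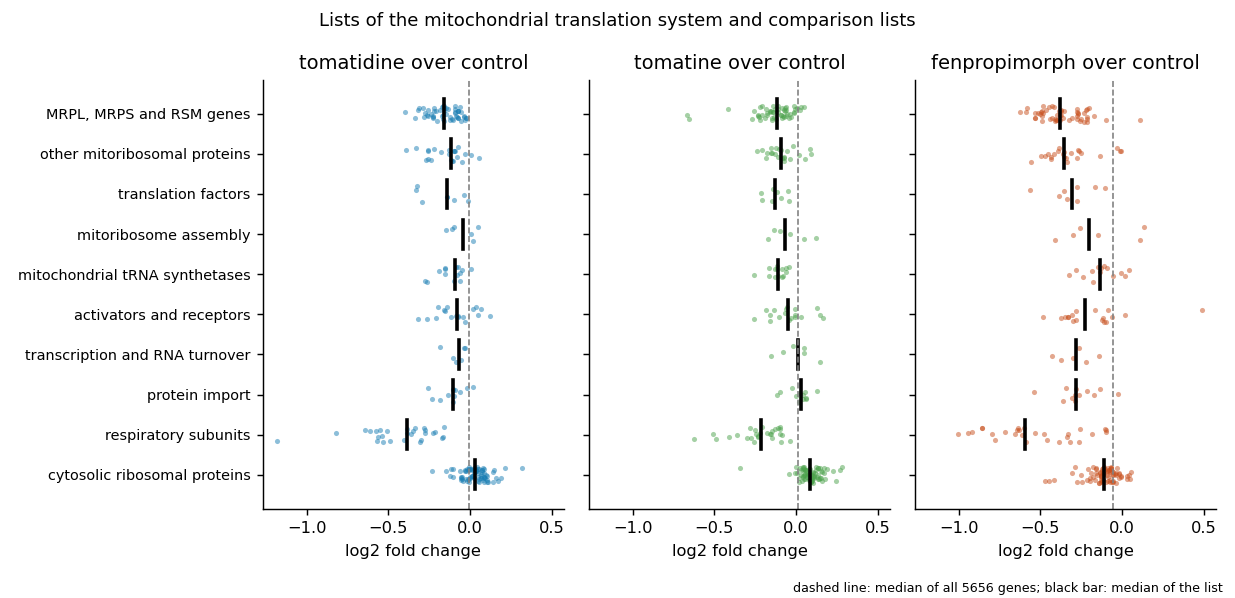
Each point is 1 gene of a list and the x axis its log2 fold change over control, 1 panel per compound on the same scale; black bars are list medians and the dashed line is the median of all 5656 genes. The medians of the 54 members are -0.16, -0.12 and -0.38 with tomatidine, tomatine and fenpropimorph, those of the respiratory subunits are -0.38, -0.21 and -0.59, and the cytosolic ribosomal proteins lie near the dashed line.

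Few genes of the cytosolic ribosome were called. Of 80 such genes, 11 fell with fenpropimorph (median -0.11) and 0 rose, also 0 at an unadjusted p under 0.05, with RPS26B, RPS27A, RPS28B and RPL22B changed most (-0.47 ± 0.0958, -0.45 ± 0.115, -0.42 ± 0.0786 and -0.31 ± 0.0804). The count that fell was 7 without control 1. Of all genes, 21.4% fell and 17.8% rose with fenpropimorph, and 21.4% were higher at an unadjusted p under 0.05. With tomatidine RPL7B rose (0.32 ± 0.0739, adjusted p = 0.0327) and with tomatine RPS14B rose (0.27 ± 0.0671, adjusted p = 0.0456), with list medians of 0.03 and 0.09. Whether the calls of RPL7B and RPS14B hold without single arrays was not tested. The shares of all genes that rose were 3.16% and 3.93%. The difference between the cytosolic and the mitochondrial proteins was not tested.

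Among 10 regulators of mitochondrial or ribosomal genes, HAP1, the heme-responsive activator, rose by 1.16 ± 0.082 with fenpropimorph (adjusted p = 6.79e-07) and by 0.66 ± 0.082 with tomatidine. In S288C this gene carries a transposon insertion. HAP4, the activating subunit of the complex that drives respiratory genes, fell with fenpropimorph (-0.82 ± 0.262, adjusted p = 0.0338), a call lost without fenpropimorph 2, fenpropimorph 3, control 1 or control 3. RTG3 and RTG2, of the retrograde pathway from mitochondria to the nucleus, rose with fenpropimorph (0.28 ± 0.0886 and 0.22 ± 0.0642). SFP1, an activator of cytosolic ribosomal genes, rose with tomatine (0.24 ± 0.0585, adjusted p = 0.0432). Whether the calls of regulators that rose hold without single arrays was not tested. Of all genes, 17.8% rose and 21.4% fell with fenpropimorph, 3.16% rose with tomatidine and 3.93% rose with tomatine. PUF3, the protein that binds many messages for mitochondrial translation, was dim, at 7.83 with tomatidine, 7.91 with tomatine, 7.95 with fenpropimorph and 8.10 in control, and was not called with any compound.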

How the data were processed

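The deposited values are probe set intensities on a linear scale, 1 column per array, made with RMA per the submitters' processing notes; its version and settings are not given in the sources used here. Log2 of each deposited intensity was taken. After 60 control probe sets were left out, 9275 were tested, of which 6504 name 1 gene, 328 several and 2443 none in the platform annotation; all 6504 matched the RefSeq table (R64).

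All 12 arrays were fitted in 1 limma 3.58.1 model (R 4.3.3) with 4 groups and moderated variances; tests were two-sided and Benjamini-Hochberg adjusted. Replicate numbers are the labels' days and pair the samples; same-day deviations from group means correlated at 0.0351 on average (18 pairs, -0.203 to 0.236), and day as a block was an alternative.

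The members and lists were chosen with earlier results of these data known. Named members are the 10 highest and 10 lowest called log2 fold changes that moved alike on all 3 days against control (5 and 5 between compounds), the 5 smallest F test p-values, and up to 4 called genes per other list. Simulated data had 9275 probe sets, of which 100 changed by 0.4 log2 units and 100 by 1. In the comparisons with control, 46% of the former and 89% to 92% of the latter were recovered. The simulated comparisons held 140 to 149 calls. Of these, 10 of 148 were false for tomatidine, 3 of 140 for tomatine and 14 of 149 for fenpropimorph. In the data 235 probe sets rose and 177 fell with tomatidine, 240 and 164 with tomatine, and 1239 and 1569 with fenpropimorph. The share recovered depends on how many probe sets change, so it does not carry over to any of these comparisons, least of all to fenpropimorph.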

Additional observations from a re-analysis of the deposited data

How the results depend on the processing

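Counts of called members were recomputed under 10 other settings and without each array. With fenpropimorph the count that fell (44) kept within 1.5 times throughout and was 35 to 47 without 1 array. With tomatidine, 6 fell; the count was 11 with 16 added before log2 or with 1 probe set for each gene, 10 with a trended and robust prior, array weights, probe sets at or above the 25th percentile or probe sets averaged within genes, and 1 with only the compared groups, and 1 to 7 without 1 array. With tomatine, 1 fell; the count was 0 with the day of culture as a replicate block, quantile normalization, median centring or only the compared groups, 2 with a trended and robust prior, 3 with array weights or without dim probe sets, 4 with 16 added, 1 probe set for each gene or probe sets averaged within genes, and 0 to 1 without 1 array. For tomatine against tomatidine, 0 were higher, and 1 with 16 added, 1 probe set for each gene or probe sets averaged within genes. Without 1 array, 10 to 25 members were higher with tomatidine than with fenpropimorph and 23 to 28 with tomatine, 0 to 1 were lower with tomatine than with fenpropimorph, and 28 to 42 differed in the F test. Some of these settings hold fewer arrays or features than the main fit, and others hold the same. The cause of these moves was not tested. Counts over all probe sets moved as well. With tomatidine 177 probe sets fell, 68 to 170 without 1 array and 237 with 16 added. With tomatine 164 fell, 41 to 160 without 1 array and 240 with 16 added. With fenpropimorph 1569 fell, 1094 to 1585 without 1 array and 1650 with 16 added. The 6 medians over the members kept their direction throughout. Of 47 results for named members, 22 kept their call in all alternatives and 0 reversed. Apart from the tomatine count and the calls of MRPL28, MRPL10 and MRPL32 given above, the replicate block changed no call of a named member and no count by over 1.5 times. The planned promoter motif shares were not run, since no promoter or protein sequences were used here.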
